A study of Homo sapiens with 8 samples.

Results

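The 261 genes described here are those that the authors' deposited table lists for TASOR knockout K-562 cells expressing FLAG-TASOR, set against wild-type control cells. They were taken as all rows of that table, out of 1221 distinct genes over the 3 deposited tables of the series. K-562 is an established human leukaemia cell line with erythroid and megakaryocytic features. The altered cells were TASOR knockout cells into which a FLAG-tagged TASOR transgene had been put back, and the controls were parental wild-type cells with a negative guide RNA, with 2 libraries in each group. A group of 2 TASOR knockout libraries and a group of 2 wild-type libraries expressing FLAG-TASOR2 were compared with the same controls, and their values are given beside those of the 261 genes.

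Knockouts were made with Cas9 and guide plasmids carrying GFP, and clones were grown from single sorted cells. The negative controls then received a lentivirus with an empty puromycin vector, while other cells received a FLAG-tagged transgene in the same way. Which groups counted as negative controls, the promoter of the transgene, the number of clones behind a group and the amount of FLAG-TASOR protein are not stated in the sources used here. Replication was biological according to the submitters, but no source ties the 2 libraries of a group to separate clones. Each p-value rests on 4 libraries, and whether their spread includes that between clones is not stated. A difference between clones therefore cannot be told apart from a difference made by the knockout or the transgene. RNA was depleted of ribosomal RNA before sequencing, so transcripts without a poly(A) tail were also measured. Depth per library is unknown, because the tables hold 1 fold change and 1 mean per gene and no count.

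TASOR is a scaffold subunit of the human silencing hub (HUSH), which also contains MPHOSPH8 (MPP8) and PPHLN1 (periphilin). HUSH recruits the histone methyltransferase SETDB1 and the chromatin remodeller MORC2, and it keeps young LINE-1 elements, integrated retroviruses, intronless transgenes and some cellular genes silent under trimethylated lysine of histone H3. TASOR2 is a paralog of TASOR. A cell that lost TASOR and received it again is commonly used to ask which changes of a knockout are undone by the protein and which persist.

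The table was a list of differences of which no single one passed correction. None of the 261 genes (0) had an adjusted p below 0.05, and every one shared the same Benjamini-Hochberg adjusted p of 0.999 of the edgeR-type F-test in the authors' deposited table. At an unadjusted p below 0.05, which the authors used for listing together with a mean above 1 log2 CPM (log2 of the read count scaled to library size) and an absolute log2 fold change above 1, the table held 85 higher genes and 176 lower genes. Of at least 13957 genes tested, the listed ones made up 1.87%, with 0.609% listed as higher, 1.26% as lower and 0% past an adjusted p of 0.05. If 13957 genes were tested, at most 695 of them can have had a p as low as the largest one listed, 0.0497. About as many, 697.85 of 13957, are expected below the slightly higher limit of 0.05 when nothing differs. With more genes tested both numbers would be larger. The genes are therefore described as listed, and no single one is said to have risen or fallen.

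Among the listed genes, the median log2 fold change was 1.73 for the higher ones and -1.74 for the lower ones in the authors' deposited table. Absolute changes above 2 on the log2 scale were listed for 30 higher and 66 lower genes. For 63 genes, 19 higher and 44 lower, the unadjusted p of the F-test was below 0.01. An approximate standard error was derived from each F score, and with it the 95% interval of 37 genes lay wholly beyond an absolute log2 fold change of 1. The genes at the edge of the list were CDKL1, a kinase gene with a log2 fold change of 1.00, TXK, a T cell kinase gene with a mean of 1.00 log2 CPM, and TXNDC16, with an unadjusted p of 0.0497, all in the authors' deposited table.

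**Figure D1:**
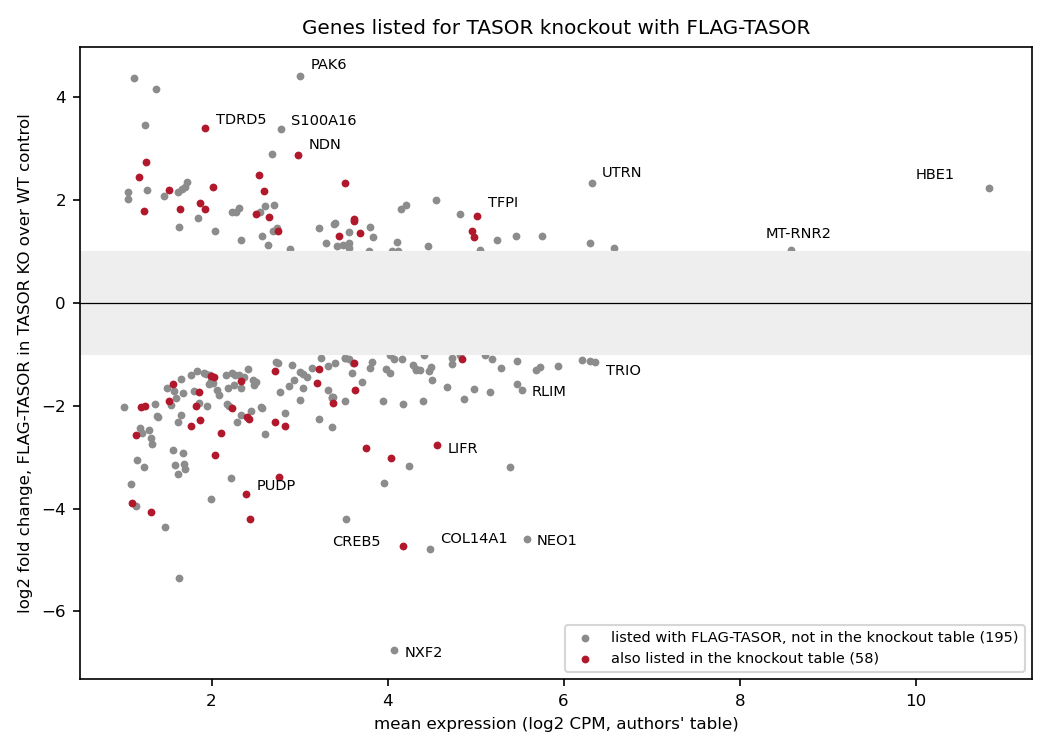
Each point is a gene listed for TASOR knockout cells with FLAG-TASOR, with its mean expression in log2 CPM on the horizontal axis and its log2 fold change over wild-type controls on the vertical axis. Red points are the 58 genes that the knockout table lists as well, and the grey band holds the changes that the authors did not list. Above a mean of 6 log2 CPM, HBE1 and UTRN lie well above the band and the other points close to it. The 8 genes with a group at 0 are not drawn.

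The plot of fold change against expression shows a list made mostly of genes with low expression, with a median mean of 2.73 log2 CPM. For 8 genes the F-test had 1 degree of freedom less than for the rest, as happens when every count of a group is 0. They were HSPE1-MOB4, SPDYE2B, SMG1P1 and ENSG00000238122, listed as higher, and SLC16A7, ENO1P1, ENSG00000273590 and ENSG00000290674, listed as lower. No fold is given for them. HSPE1-MOB4 is a readthrough gene, SMG1P1 and ENO1P1 are pseudogenes, and SPDYE2B has near-identical copies, so reads may be split between copies.

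For the genes that follow, an approximate level in each group was computed from the deposited fold change and mean, in CPM. These levels carry no error of their own, are not scaled to gene length and serve only to compare groups for 1 gene. As a check, the control level of the same gene was computed from the FLAG-TASOR table and from the knockout table, which share the control libraries. It differed by a median of 0.0768 on the log2 scale over 58 genes, and by less than 0.5 for 57 of them.

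TASOR itself was not listed, so its level in these cells has no value here, and neither do MPHOSPH8, PPHLN1, SETDB1 or MORC2. In the authors' deposited table for the knockout, TASOR was listed at -1.08 (approximate SE 0.23), from about 82.4 CPM in the controls to 39.0 CPM. The knockout was checked by the submitters on DNA and protein, and an RNA that persists in part does not test it. The FLAG-TASOR transgene has no row of its own. Of the 16 genes of the HUSH list, 0 were in the table.

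Genes listed both with and without the transgene are those for which a difference from the controls can be followed after TASOR was put back. The FLAG-TASOR table shared 60 genes with the knockout table, which is 23% of its own 261 genes and 22.4% of the 268 of the knockout. The 268 are 1.92% of the genes tested there. Of the shared genes, 1 (TFPI) passed an adjusted p of 0.05 in the knockout, and the other 59 had adjusted p values from 0.628 to 1.00 by the F-test of the authors' deposited table, so their place in both tables is not a call in either. Both tables use the same control libraries, so a control value that is high or low by chance enters both, and the sharing is a description. Of the shared genes, 24 were listed as higher in both, 35 as lower in both and 1 with opposite signs. The other 208 genes of the knockout table, 112 higher and 96 lower, have no value with FLAG-TASOR. A gene in both tables had to keep an absolute log2 change above 1 in each, so a complete return to the control level could not appear among them.

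The gene that moved farthest toward its control level was TFPI. TFPI (ENSG00000003436, chromosome 2, 187464230 to 187565760, minus strand, GRCh38) encodes a protein that blocks tissue factor at the start of coagulation. Its level was about 15.3 CPM in the controls, 428 CPM in the knockout, 49.5 CPM in the knockout with FLAG-TASOR and 269 CPM in wild-type cells with FLAG-TASOR2. With FLAG-TASOR it thus lay between the controls and the knockout, nearer to the controls. The authors' deposited tables gave a log2 fold change of 1.70 (approximate SE 0.32, 95% interval 0.90 to 2.49) with FLAG-TASOR and of 4.86 (0.19) without it. The difference of these values was -3.16, with an approximate SE of at most 0.37. In the knockout TFPI rose with an adjusted p of 0.0114, while with FLAG-TASOR its unadjusted p was 0.00241 and its adjusted p 0.999, by the F-test of the authors' deposited tables.

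Promoters are shown for 4 members that stand for the different patterns described here. TFPI had the widest difference between the knockout groups among genes of the same sign in both, ZNF671 lay between the controls and the knockout, NDN was listed at nearly its knockout level, and RLIM was listed with FLAG-TASOR and in neither other table. Each has 1 promoter in the RefSeq table (build GRCh38.p14), and each window runs from 250 bases before to 50 bases after the annotated start. The TFPI window lies inside the gene span given above, so it describes 1 annotated start and not the outermost end of the gene. Capitals mark matches to 5 short motifs, searched on either strand and allowed to overlap. One is the TATA box, searched as TATAAA, near which many polymerase complexes assemble. Another is the site of the erythroid GATA factors, searched as AGATAA. The GC box, searched as GGGCGG, is bound by Sp factors. The motif of nuclear factor Y was searched as CCAAT. The fifth, bound by Kruppel-like factors, was searched as CCACCC. The windows are chr2:187554386-187554685 (minus strand), chr19:57727575-57727874 (minus strand), chr15:23687256-23687555 (minus strand) and chrX:74614575-74614874 (minus strand).
TFPI: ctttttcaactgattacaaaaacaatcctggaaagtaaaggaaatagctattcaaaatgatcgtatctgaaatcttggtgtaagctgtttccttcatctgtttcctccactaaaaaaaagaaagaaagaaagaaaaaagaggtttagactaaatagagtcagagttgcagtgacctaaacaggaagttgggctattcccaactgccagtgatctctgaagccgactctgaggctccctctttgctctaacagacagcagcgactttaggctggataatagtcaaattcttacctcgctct
ZNF671: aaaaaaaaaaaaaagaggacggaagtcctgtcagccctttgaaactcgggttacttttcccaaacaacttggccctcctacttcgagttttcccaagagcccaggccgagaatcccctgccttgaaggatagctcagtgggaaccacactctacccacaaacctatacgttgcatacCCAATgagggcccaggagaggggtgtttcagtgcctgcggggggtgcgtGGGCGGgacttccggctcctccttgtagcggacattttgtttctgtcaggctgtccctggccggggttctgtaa
NDN: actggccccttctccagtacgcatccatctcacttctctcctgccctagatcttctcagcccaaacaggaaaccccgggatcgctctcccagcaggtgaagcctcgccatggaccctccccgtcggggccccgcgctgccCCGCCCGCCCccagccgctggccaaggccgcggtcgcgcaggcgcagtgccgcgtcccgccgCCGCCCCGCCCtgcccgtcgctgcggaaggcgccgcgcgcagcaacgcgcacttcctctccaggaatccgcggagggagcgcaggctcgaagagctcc
RLIM: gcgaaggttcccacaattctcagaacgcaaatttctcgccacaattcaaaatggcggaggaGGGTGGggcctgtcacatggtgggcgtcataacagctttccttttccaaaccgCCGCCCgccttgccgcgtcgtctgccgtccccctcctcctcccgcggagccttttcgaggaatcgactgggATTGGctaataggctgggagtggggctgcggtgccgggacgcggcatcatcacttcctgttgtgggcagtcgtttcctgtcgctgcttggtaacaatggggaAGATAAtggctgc

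The 4 windows differ in base composition. The TFPI window held 4 CpG dinucleotides, 39.3% G and C, and none of the 5 motifs (0 matches). The ZNF671 window held 11 CpGs, with 1 GC box and 1 match to the nuclear factor Y motif. In the NDN window there were 35 CpGs and 4 GC boxes, and in the RLIM window 22 CpGs and 1 match each to the motifs of the GATA, Sp, nuclear factor Y and Kruppel-like factors. A match describes letters and is not a binding site.

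Over the members that matched the table by symbol, promoters of 56 higher genes (85 promoters) had a median of 16 CpGs and 61% G and C. Those of 126 lower genes (191 promoters) had a median of 20 CpGs and 60.3%. All 35116 promoters of 27305 genes had a median of 14 CpGs and 58.7%. A GC box was found in 55.3% of the promoters of higher and 53.4% of those of lower genes, against 44.95% of all promoters. The Kruppel-like motif stood in 48.2%, 39.3% and 34.3%, and the nuclear factor Y motif in 35.3%, 35.1% and 34.6%, in the same order. GATA sites stood in 8.235%, 10.5% and 10.3%, and TATA boxes in 8.235%, 8.90% and 11.5%. Overlapping windows of 1 gene were counted separately, and genes too low to be tested are part of all promoters.

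Germline and cancer-testis genes went both ways. TDRD5 and TSPYL6 were listed as higher in both knockout groups, and XAGE1B and GCNA as lower in both. TDRD5 (chromosome 1, 179591613 to 179691272), which encodes a Tudor-domain protein of the germline that helps to silence transposons, had a level of about 0.656 CPM in the controls, 18.2 CPM in the knockout and 6.96 CPM with FLAG-TASOR. Its log2 fold change was 3.41 (approximate SE 0.82) with FLAG-TASOR and 4.87 (0.70) without it in the authors' deposited tables. TSPYL6, an intronless gene of a testis-specific family, was listed at 2.18 (0.83) with FLAG-TASOR and at 3.45 (0.36) without it in the authors' deposited tables. Both genes were lower with the transgene than without it and above the controls, and their differences between the tables, -1.46 and -1.27, had approximate SEs of up to 1.08 and 0.91.

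The list of zinc finger genes, matched by symbol, had 7 members out of 623 annotated genes, 5 listed as higher and 2 as lower. Most zinc finger genes encode KRAB repressors that bind transposons. The share of 1.12% is close to the 1.05% of all annotated protein-coding genes that were listed. Zinc finger genes with other symbols, such as GFI1 and GLIS3, both listed as lower, are counted among the transcription factors below. The 7 include the pseudogene ZNF702P, listed as higher, whereas the 623 are protein-coding genes only, so the share of like genes is slightly lower. The knockout table lists 22 as higher and 4 as lower. An unlisted gene has no value, so this difference in counts was not tested. ZNF671 (chromosome 19, 57719751 to 57727624) lay at about 1.37 CPM in the controls, 11.4 CPM in the knockout and 4.89 CPM with FLAG-TASOR. ZNF418, its neighbour in the cluster at the distal end of chromosome 19, lay at about 1.51, 14.1 and 5.78 CPM in the same groups. With FLAG-TASOR their log2 fold changes were 1.84 (0.64) and 1.94 (0.59), against 2.95 (0.64) and 3.02 (0.69) without it, in the authors' deposited tables. ZNF225-AS1, an antisense RNA gene of another zinc finger cluster, stood at 2.75 (0.83) with FLAG-TASOR and 3.92 without it in the authors' deposited tables.

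Some shared genes stood at nearly the same level with and without the transgene. ZNF702P, a zinc finger pseudogene, was at 1.59 (0.34) with FLAG-TASOR and 1.67 (0.32) without it in the authors' deposited tables. NDN, the imprinted gene of necdin on chromosome 15 (23685400 to 23687330), was at 2.87 (1.12) and 3.08 (1.22), from about 1.90 CPM in the controls to 13.9 CPM with FLAG-TASOR and 16.6 CPM without, in the authors' deposited tables. BCL9, a cofactor of beta-catenin, was listed at 1.64 and 1.62, and GPR89A, which has near-identical copies, at 1.28 and 1.22, in the authors' deposited tables. For NDN the approximate error of the difference, up to 1.65, is wider than the difference of -0.21.

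Over the 23 genes listed as higher in both tables and with a fold in each, 16 were nearer to the controls with FLAG-TASOR and 7 were not. Their median log2 fold change was 1.83 with FLAG-TASOR and 2.37 in the knockout, and the median of the differences was -0.29, in a range from -3.16 to 0.97. Of these genes, 8 had moved by more than 1 on the log2 scale toward the controls, 0 by more than 1 away from them, and 12 differed by less than 0.5. The 8 were TFPI, TDRD5, TSPYL6, ZNF225-AS1, ZNF671, ZNF418, LINC02616 and ACVR1C. For ZNF225-AS1 the approximate SE of the difference, up to 1.33, was wider than the difference of -1.17. The differences of ZNF671, ZNF418, LINC02616 and ACVR1C were -1.11, -1.09, -1.04 and -1.01. Their approximate SEs were up to 0.90, 0.91, 0.65 and 0.72. ACVR1C, which encodes the activin receptor ALK7, was listed at 1.83 (0.57) with FLAG-TASOR and 2.84 (0.44) without it in the authors' deposited tables. PPFIBP1, a liprin gene, had the reverse order, 2.33 (0.65) with and 1.42 without the transgene in the authors' deposited tables. These counts describe the shared genes and do not test the transgene.

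**Figure D2:**
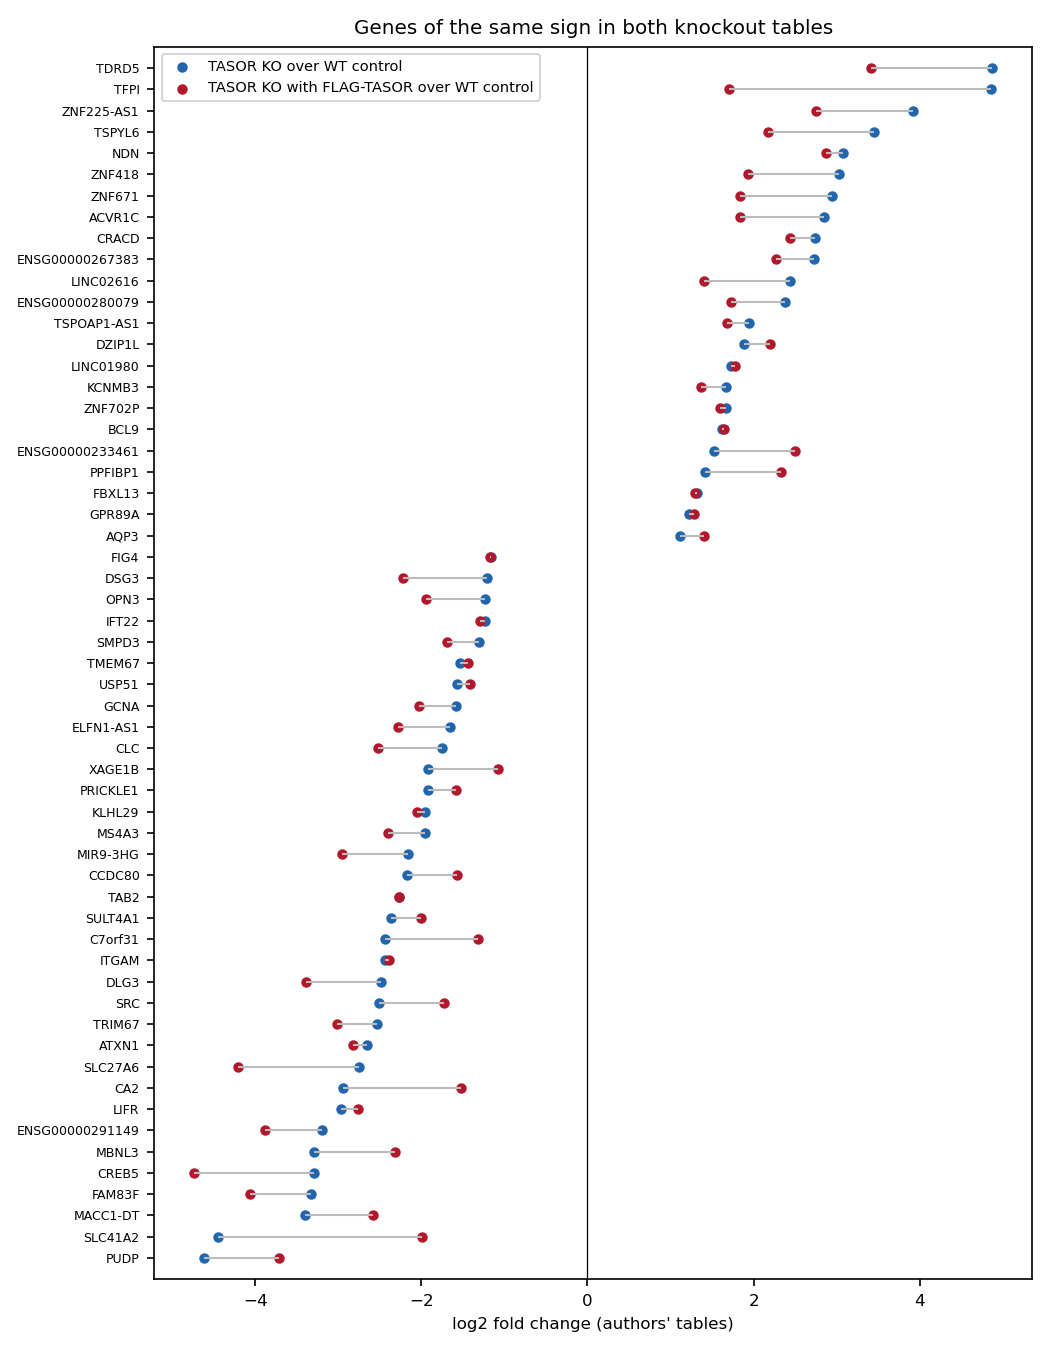
Each row is 1 of the 57 genes listed with the same sign in both knockout tables, with the log2 fold change over the shared controls on the horizontal axis. Blue points are TASOR knockout cells and red points are knockout cells with FLAG-TASOR. The 8 higher genes that moved by more than 1 all run toward 0 with FLAG-TASOR, TFPI with the longest line, while lines of the lower genes run both ways.

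Genes listed as lower in both tables were divided. Of 34 with a fold in each table, 16 were nearer to the controls with FLAG-TASOR and 18 were not. The median log2 fold change was -2.24 with the transgene and -2.32 without it, the median difference was -0.03 and the range was -1.45 to 2.46. By more than 1 on the log2 scale, 3 genes had moved toward the controls and 3 away from them, and 15 differed by less than 0.5.

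LIFR had the smallest p of the whole FLAG-TASOR table. LIFR (chromosome 5, 38474963 to 38608354) encodes the receptor subunit for leukaemia inhibitory factor, a cytokine that signals through gp130 and STAT3. It lay at about 41.2 CPM in the controls, 6.07 CPM with FLAG-TASOR and 5.83 CPM in the knockout, so both knockout groups were low and close to each other. Its log2 fold change was -2.76 (approximate SE 0.27, 95% interval -3.45 to -2.07, unadjusted p 0.000111, adjusted p 0.999 by the F-test) with FLAG-TASOR and -2.97 (0.33) without it in the authors' deposited tables. The difference of 0.20 was within its approximate SE of at most 0.43.

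Other lower genes that differed little between the knockout groups were ITGAM, TAB2, FIG4 and IFT22. ITGAM, the alpha-M integrin of myeloid cells, was listed at -2.39 (0.70) with FLAG-TASOR and -2.44 without it in the authors' deposited tables. TAB2, an adaptor of the kinase TAK1, stood at -2.27 in both of the authors' deposited tables. FIG4, a phosphoinositide phosphatase gene, was listed at -1.17 and -1.16, and IFT22, of intraflagellar transport, at -1.29 and -1.23, in the authors' deposited tables.

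The 3 lower genes nearer to the controls by more than 1 were SLC41A2, CA2 and C7orf31. SLC41A2, a magnesium transporter gene, lay at about 5.65 CPM in the controls, 0.228 CPM in the knockout and 1.42 CPM with FLAG-TASOR. CA2, the carbonic anhydrase of red cells, was listed at -1.53 (0.46) with FLAG-TASOR and -2.95 (0.55) without it in the authors' deposited tables. The 3 that lay farther from the controls by more than 1 were SLC27A6, a fatty acid transporter gene, CREB5, a leucine zipper transcription factor gene, and DSG3, a desmosomal cadherin gene. CREB5 was listed at -4.74 (1.13) with FLAG-TASOR and -3.30 (0.96) without it, and lay at about 34.8 CPM in the controls, 1.30 CPM and 3.46 CPM in the authors' deposited tables. The approximate SE of that difference, up to 1.48, is as large as the difference of -1.44.

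The gene with opposite signs was DIPK1C, a kinase-like gene whose product lies in the secretory pathway. In the authors' deposited tables it was at -1.90 (0.59) with FLAG-TASOR, 1.57 (0.43) in the knockout and -2.50 (0.65) with FLAG-TASOR2.

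The 60 members also listed for wild-type cells expressing FLAG-TASOR2 made up 23% of the 261 and 6.79% of the 884 genes of that table, and 6 of them had opposite signs. The 884 are 6.31% of the genes tested there. These cells were never knocked out, and the controls are again shared. All 3 tables listed 28 of the genes, 14 as higher throughout, 12 as lower throughout and 2 with mixed signs. The 2 were DIPK1C and MS4A3, a myeloid gene at -2.40 (0.48) with FLAG-TASOR, -1.96 in the knockout and 2.24 with FLAG-TASOR2 in the authors' deposited tables. NXF2, an X-linked cancer-testis gene for an mRNA export factor with a near-identical copy, was listed at -6.76 (1.83) with FLAG-TASOR and 2.72 (1.03) with FLAG-TASOR2 in the authors' deposited tables.

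**Figure D3:**
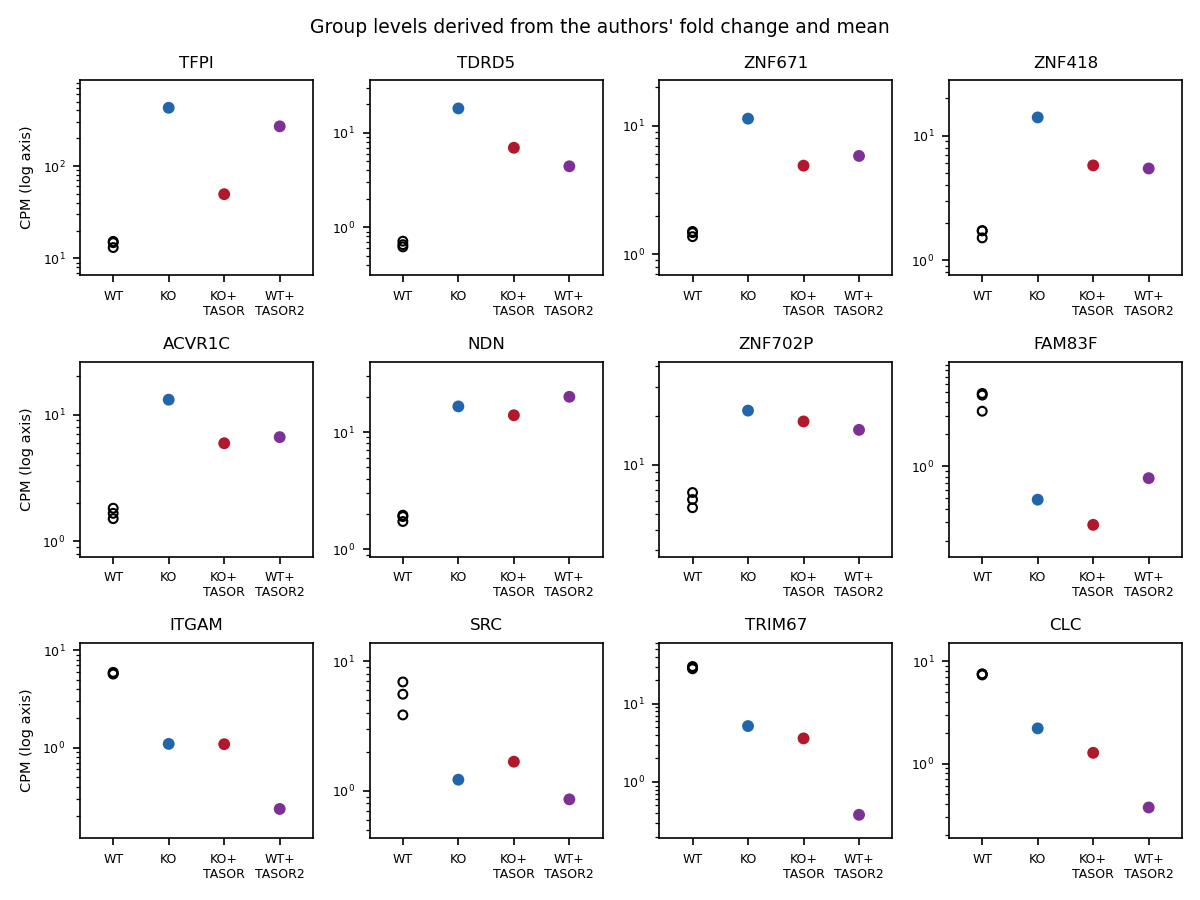
Levels of 12 genes listed in all 3 tables, in CPM on a logarithmic axis, in wild-type controls (open circles, 1 from each table), TASOR knockout cells, knockout cells with FLAG-TASOR and wild-type cells with FLAG-TASOR2. Each value was derived from the authors' fold change and mean and carries no error. TFPI, TDRD5, ZNF671, ZNF418 and ACVR1C lie lower with FLAG-TASOR than in the knockout, whereas NDN and ZNF702P lie close to their knockout level.

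The other 201 members were not in the knockout table, and 169 of them, 51 higher and 118 lower, were in neither other table. RLIM, TRIO and HBE1 were among them. HBE1, the embryonic beta-like globin gene of chromosome 11, had the highest mean CPM of the members, with about 635 CPM in the controls and 3004 CPM with FLAG-TASOR. Its log2 fold change was 2.24 (approximate SE 0.57, 95% interval 0.80 to 3.68) in the authors' deposited table. The gene model of HBE1 overlaps 6 other protein-coding genes on its strand, so reads of neighbouring globin genes may have been shared. UTRN, which encodes utrophin, a large protein that links actin to the dystroglycan complex, went from about 26.5 to 133 CPM, at 2.33 (0.68) in the authors' deposited table. MT-RNR2, the large ribosomal RNA of mitochondria, stood at 1.02 (0.25) in the authors' deposited table, the only member from the mitochondrial genome. Unlike HBE1, it was also listed for wild-type cells with FLAG-TASOR2, at 5.60 (1.98).

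The highest folds outside the knockout table at or above the median expression of the members were those of PAK6 and S100A16. PAK6, a kinase activated by Cdc42, stood at 4.42 (1.23), from about 0.719 to 15.4 CPM, in the authors' deposited table. The gene model of PAK6 overlaps 1 other protein-coding gene on its strand, so reads may have been shared. S100A16, a calcium-binding protein gene, stood at 3.39 (1.10) in the authors' deposited table. Just below that median, RNF125, a ubiquitin ligase gene, stood at 2.89 (1.02) in the authors' deposited table. Lowest were NXF2, COL14A1, a collagen gene at -4.78 (1.54), and NEO1, the netrin receptor neogenin at -4.59 (0.94), in the authors' deposited table. NEO1 lay at about 91.8 CPM in the controls and 3.81 CPM with FLAG-TASOR. ELOVL2, a fatty acid elongase gene, at -3.17 (0.47), and ADGRG6, an adhesion receptor gene, at -4.20 (1.51), were also among the lowest in the authors' deposited table.

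By function, the members were spread over many classes. The 13 groups below were put together after the values had been seen, so they describe the list and carry no test. As a reference, 67.4% of the whole list was lower, with a median log2 fold change of -1.36. All 3 actin-bundling genes were listed as higher: VIL1 (villin) at 1.83 (0.61), ESPN (espin) at 1.55 (0.44) and EPS8L2 at 1.48 (0.55) in the authors' deposited table. TRIO, a guanine nucleotide exchange factor, was at -1.16 (0.19) in the authors' deposited table. Its level went from about 113 to 50.9 CPM.

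The 11 members placed in the myeloid and leukocyte group were all listed as lower, with a median of -1.71. They were picked after the values had been seen, so their single direction is not a result about such genes. Beside MS4A3 and ITGAM they included CLC (galectin-10 of eosinophils) at -2.52 (0.99) in the authors' deposited table. They also included GFI1, a transcriptional repressor needed for granulocyte development, at -2.53 (0.64) in the authors' deposited table. Further members were PIK3CG, a lipid kinase of leukocytes, at -1.23 (0.47), and MALT1, of NF-kB signalling, at -1.09 (0.39), in the authors' deposited table. Of the separate myeloid list of 44 genes, MS4A3, ITGAM and CLC were members, or 6.82%, against 1.05% of all annotated protein-coding genes. All 3 were also listed as lower in the knockout. Lymphoid markers (28 genes) and markers of fibroblasts, endothelium and epithelium (25 genes) had 0 members, and at the 1.05% of annotated protein-coding genes listed overall such short lists can be empty without any meaning. For erythroid genes HBE1 and AQP3, a water channel at 1.40 (0.38), were listed as higher and CA2 as lower in the authors' deposited table. THBS1 was the only member of the megakaryocyte list of 42 genes, or 2.38%. It was at 1.91 (0.69) in the authors' deposited table, and at 3.21 in the one for FLAG-TASOR2. Whether the makeup of the cultures moves with these genes was not tested, and in bulk RNA fewer cells of a type and less RNA per cell cannot be told apart.

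**Figure D4:**
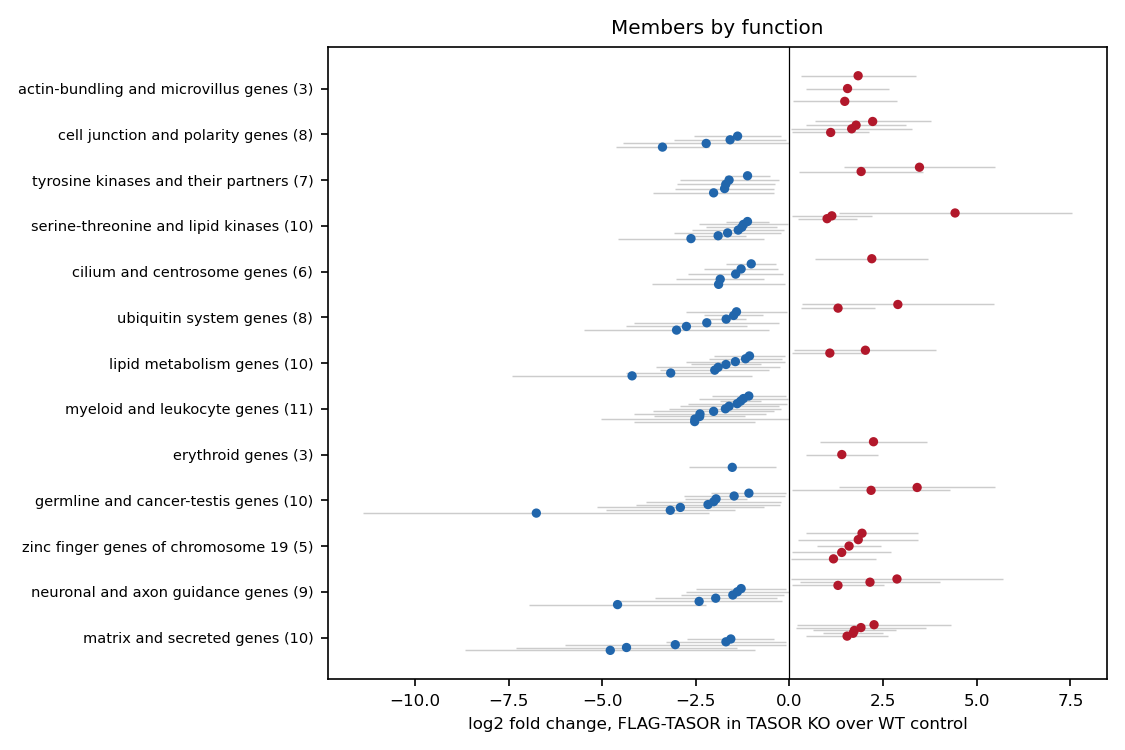
Log2 fold changes of members in 13 function groups, with approximate 95% intervals as grey lines and the number of members in parentheses. Red points are listed as higher and blue points as lower. The groups were put together after the values had been seen. Members placed in the leukocyte group lie wholly to the left of 0. Those in the actin-bundling and chromosome 19 zinc finger groups lie wholly to the right of it.

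In their function group, germline and cancer-testis genes were listed as 2 higher (TDRD5 and TSPYL6) and 8 lower. The separate list of 239 such genes had 2 higher and 6 lower members, or 3.35%, against 1.05% of all annotated protein-coding genes. Of the lower genes of the group, NXF2, TEX11, SSX3, CT45A1, XAGE1B and GCNA lie on chromosome X, so they are also part of the counts for that chromosome. ACTL8, an actin-like cancer-testis gene, was at -3.18 (0.68), TEX11, needed for meiosis, at -2.91 (0.88), SSX3 at -1.96 (0.33), CT45A1 at -2.17 (0.77) and XAGE1B at -1.08 (0.40), in the authors' deposited table. CT45A1, XAGE1B and NXF2 belong to families of near-identical genes. Tyrosine kinase genes were divided, with TIE1, an endothelial receptor gene, at 3.47 (0.80) and BMX at 1.91 (0.65) above, and SRC at -1.73 (0.53), FRK at -1.70 (0.52), FER at -1.12 (0.24) and TXK at -2.03 (0.64) below, in the authors' deposited table. The list of 431 solute carrier and ABC transporter genes had 8 members (1.86%), 7 of them lower. That of 541 transcription factor genes outside the symbol-matched zinc finger list had 8 (1.48%), again 7 of them lower. Both shares are not far above the 1.05% of all annotated protein-coding genes, and 67.4% of all members were lower. SOX4 was at -2.01 (0.70), GLIS3, which encodes a zinc finger protein, at -1.51 (0.51) and NFE2L3 at -1.07 (0.25), in the authors' deposited table. Lipid metabolism genes were listed as 2 higher and 8 lower, cilium and centrosome genes as 1 and 5, and ubiquitin system genes as 2 and 6.

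For interferon-stimulated genes the 2 members had opposite directions, EPSTI1 at 2.35 (0.83) and APOL1 at -2.25 (0.54), in the authors' deposited table. Histone, ribosomal protein and clustered protocadherin genes had 0 members. The knockout table lists 17 gamma protocadherins as higher, and with FLAG-TASOR 0 of them was listed, which gives no value for any. In all, 62 members were in at least 1 of the 26 gene lists, 6 lists held none and 199 members were in no list.

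By position, members on chromosome X were almost all listed as lower. It held 30 members, 29 of them lower with a median log2 fold change of -1.90, and 28 of its 845 annotated protein-coding genes were lower members, or 3.31%. Over all chromosomes this share was 0.737%. BMX was the only X-linked member listed as higher. The knockout table lists 21 genes of X, 15 of them lower, and the FLAG-TASOR2 table lists 80, with 67 lower, all against the same controls. On chromosome 1 the direction was the other way, 15 higher against 7 lower. Its higher protein-coding members were 0.587% of its annotated protein-coding genes, against 0.316% over all chromosomes. On chromosome 19 there were 10 higher and 6 lower members, but 6 loci each way when genes within 1 Mb are counted as 1. There 0.340% of the annotated protein-coding genes were higher members, close to the share over all chromosomes. Lower ones made up 0.294% on chromosome 1 and 0.272% on chromosome 19. Neighbouring genes are not independent, and the 29 X-linked genes form 19 loci when those within 1 Mb are counted as 1.

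A stretch of X around RLIM held 16 of these genes. It was found after the values had been seen, as members of 1 sign with gaps of at most 3 Mb, so its single direction follows from how it was defined. It runs from 64268081 to 80809688 of GRCh38. In order along the chromosome the genes include MTMR8, MIR223HG, VSIG4, STARD8, EFNB1, PJA1, DLG3, TEX11, GCNA, PHKA1, RLIM, UPRT, PBDC1, MAGT1 and BRWD3. They include 15 of the 95 annotated protein-coding genes there, or 15.8%. Log2 fold changes ran from -3.39 to -1.01 with a median of -1.82, and 8 of the 16 had an unadjusted p below 0.01 in the authors' deposited table. RLIM (74585217 to 74614617), a ubiquitin ligase that acts in X inactivation, went from about 70.1 to 21.7 CPM, at -1.69 (0.21, 95% interval -2.21 to -1.17, unadjusted p 0.000311, adjusted p 0.999 by the F-test) in the authors' deposited table. PHKA1, a subunit of phosphorylase kinase, was at -1.90 (0.29) and DLG3, a synaptic scaffold gene, at -3.39 (0.49), in the authors' deposited table. The knockout table lists 2 of the 16, DLG3 and GCNA, both lower, and 5 genes inside the stretch in all, each lower. The FLAG-TASOR2 table lists 8 genes there, 6 of them lower.

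**Figure D5:**
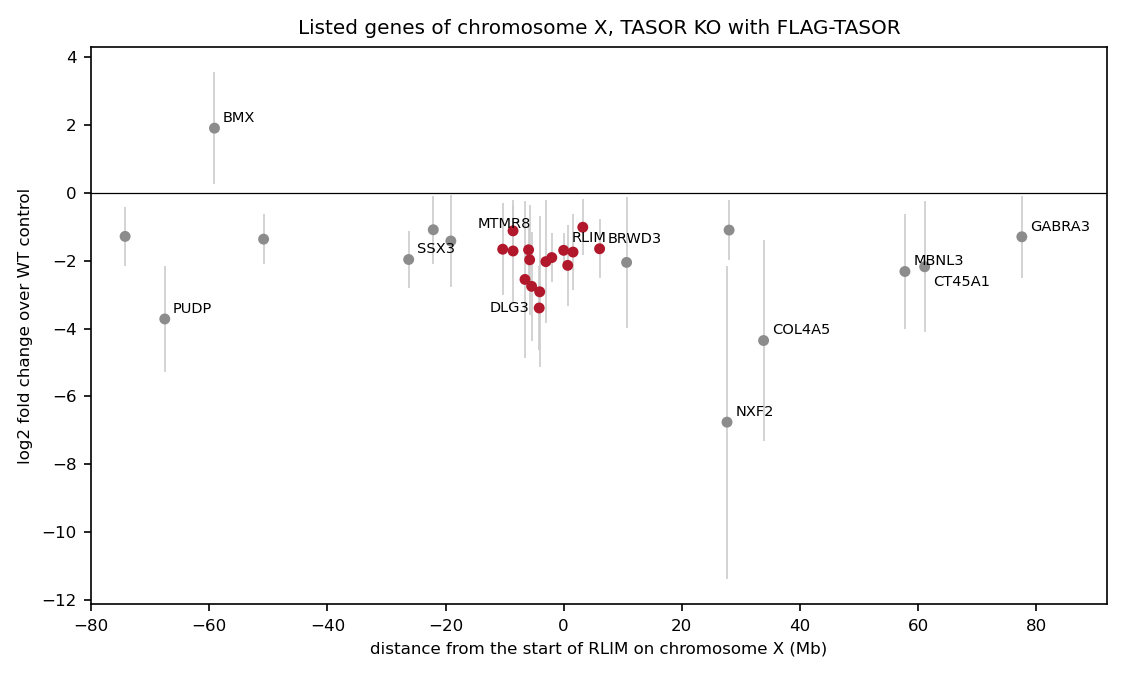
Members on chromosome X by distance in Mb from the start of RLIM, with the log2 fold change over wild-type controls and approximate 95% intervals. Red points are the 16 genes of the stretch around RLIM. Every point but that of BMX lies below 0, and the red points lie between -3.39 and -1.01.

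Shorter stretches were seen on 3 other chromosomes. On chromosome 19, from 20125377 to 20661596, ZNF486, ZNF626 and the unnamed genes ENSG00000267383 and ENSG00000280079 were listed as higher, and 2 of the 3 annotated protein-coding genes of this interval were members. ZNF486 was at 1.39 (0.53) and ZNF626 at 1.17 (0.45), in the authors' deposited table. All 4 were also in the FLAG-TASOR2 table, and the unnamed pair in that of the knockout. On chromosome 1, GPR89A, GNRHR2, BCL9 and ECM1 were listed as higher between 145607990 and 150513789, and on chromosome 17, TBC1D3, GJD3-AS1, GJD3 and GHDC as lower between 38181659 and 42194532. TBC1D3 has near-identical copies.

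In structure, higher and lower protein-coding members had the same median of 10 exons. Of the members matched to GENCODE 29, 63 of 83 higher genes (75.9%) and 147 of 170 lower genes (86.5%) were protein-coding. The median span of protein-coding members was 48.8 kb for higher and 54.9 kb for lower ones, and that of all 19951 annotated protein-coding genes was 27.1 kb. Spans above 300 kb were found for 4 higher members (4.82%) and 19 lower members (11.2%) of any class, against 4.04% of annotated protein-coding genes. The long lower members include CREB5, SLC27A6, ITPR2, an intracellular calcium channel gene at -1.74 (0.38), and PRKCE, a protein kinase C gene at -2.63 (0.77), in the authors' deposited table. Annotated genes include many that are too low to be tested, so their spans are a reference and not a control. A protein-coding gene overlapped 69 members on the other strand and 19 members on the same strand, among the latter HBE1, PAK6, TAB2 and EPS8L2. No source used here states if reads were counted by strand, so reads of such overlapping pairs may not be told apart.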

How the data were processed

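Each deposited table compares 1 group of 2 libraries with the same 2 controls. Per the file headers, its deposited columns are the log2 fold change and log2 CPM, F as a score, the p-value and the false discovery rate of every listed gene. The submitters' processing notes list hg38, STAR 2.7.8, DESeq2, edgeR and Salmon without their roles. The authors' column headings are the ones edgeR's quasi-likelihood test writes, but no source used here says which tool made the deposited tables. The deposited values were used unchanged, and with no value per library no model was refitted.

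From them, an approximate SE (size of the log2 fold change over the root of F) was computed, with intervals from a t distribution with 5.34 degrees of freedom, recovered from the authors' F scores and p-values. Whether this SE and these intervals match those of the authors' own fit was not tested. The largest row number in the table gave the lower bound of 13957 genes tested. Positions came from GENCODE 29 (GRCh38), which matched 253 of 261 identifiers, and promoters from RefSeq. Python 3.11.15, pandas 2.3.3 and scipy 1.17.1 were used.

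Genes were named by expression and fold change, by p, by gene list and by presence in the other tables. Other genes named in function groups, stretches and long genes were chosen after their values were seen. The members and gene lists were chosen with earlier results of these data known. Alternatives were stricter listing thresholds, protein-coding genes only and counting by locus. Tables of transposable elements were not used, and some genes are not reported here.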

Additional observations from a re-analysis of the deposited data

How the results depend on the processing

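No paired analysis was possible because the deposited tables hold no value per library, and leaving out each replicate was not possible for the same reason. The number of genes with an adjusted p below 0.10 was also 0. At an absolute log2 fold change above 2, the count listed as higher fell from 85 to 30 and the count listed as lower from 176 to 66. At an unadjusted p below 0.01 these were 19 and 44. Among the genes shared with the knockout, 24 higher and 35 lower, 6 and 6 had an unadjusted p below 0.01 in both tables. With protein-coding genes only, 15 of the shared higher genes were left, and 23 of the shared lower genes had a mean above 2 log2 CPM in both tables. Of the 60 genes shared with FLAG-TASOR2, 6 had an unadjusted p below 0.01 in both tables. Each of these alternatives admits fewer genes. By locus, with neighbours merged, the 29 lower genes of chromosome X counted as 19. Of 16 alternative counts for gene lists, 7 stayed within 1.5 times the count reported.

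The depth of the libraries is unknown, and 2 libraries a group limit the precision.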
